A study of Homo sapiens with 2 samples.

Results

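PIGR encodes the polymeric immunoglobulin receptor, the epithelial protein that carries dimeric IgA and pentameric IgM across the mucosa. It was taken as the row of the feature list whose symbol is PIGR (ENSG00000162896), 1 of 36601 listed genes. It was chosen because its level differed between the libraries, so its levels are described here and support nothing further. The samples were 2 single-cell libraries of organoids of colon type, both grown from 1383D6, a widely used human iPS (induced pluripotent stem) line. Both cultures went through activin A, then FGF2, then Matrigel culture with EGF, forskolin, PD98059, 5-aza-2'-deoxycytidine and further agents. The 3CK culture then was given 3 cytokines (IL-1β, IFN-γ and TNF-α) over 8 days, and the CNT culture received no cytokines. The series title names a model of ulcerative colitis. With 1 library of 1 cell line per group there was no replicate check and no test, and all intervals are at 95% and cover only the error of counting.

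As background, the receptor sits on the basolateral side of gut epithelial cells, where it binds polymeric immunoglobulin that contains the joining chain. The complex is taken up, sorted through endosomes and delivered to the apical side, where the outer part of the receptor is cut off and leaves with the antibody as secretory component. Each receptor molecule makes the trip a single time, so the amount of antibody moved depends on how much receptor is made. IFN-γ, TNF and IL-1 are all known to raise its transcription in colon carcinoma lines, through IRF1 and NF-κB among others.

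The gene lies on chromosome 1 of GRCh38, from 206928522 to 206946466 on the minus strand, with 11 exons in its main transcript in GENCODE release 44. No other gene of that annotation overlaps it. The start of the gene is shown because it was searched for short sequence motifs. The first line below is the 250 bases before the start site (chr1:206946467-206946716) and the second is the first 30 bases of exon 1 (chr1:206946437-206946466), both 5′ to 3′ along the gene, from the RefSeq promoter table of GRCh38.p14. Capitals mark matches to the interferon regulatory factor core AANNGAAA on either strand.
PIGR upstream: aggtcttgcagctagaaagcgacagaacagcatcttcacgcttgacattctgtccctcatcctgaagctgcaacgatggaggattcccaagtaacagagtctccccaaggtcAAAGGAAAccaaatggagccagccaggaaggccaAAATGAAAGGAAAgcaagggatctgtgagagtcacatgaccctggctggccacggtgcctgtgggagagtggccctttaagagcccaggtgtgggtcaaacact
PIGR exon 1 start: gagcagagTTTCAGTTttggcagcagcgtc
The core matched at 4 places, 3 before the start site on the gene's own strand (of which 2 overlap) and 1 on the opposite strand within exon 1. That motif was added after the sequence was seen, and 22.8% of 35116 promoters of the same length hold it. The following motifs, chosen earlier, did not match in the 300-base window: the interferon-stimulated response element core (in 3.57% of promoters), the E-box CACGTG (7.26%), TATAAA (11.5%) and the NF-κB consensus (5.91%), each searched on both strands. A match describes letters only, and its absence says nothing about the factor.

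The CNT matrix kept 2487 cells with 101831571 UMIs (unique molecular identifiers), and 1398 cells with 91860414 UMIs were kept for 3CK, and no barcode was shared. Cells were divided by UMIs per 10000: epithelial cells had EPCAM at 2 or more (1660 CNT and 1016 3CK cells), mesenchymal cells had COL1A1, COL1A2 and COL3A1 together at 5 or more with EPCAM under 1 (574 and 124), and MALAT1-rich barcodes had MALAT1 at 300 or more (220 and 176, of which 90 and 94 were also epithelial). The epithelial cells carried the hindgut factor CDX2 at 80.6 CPM (counts per 1000000 UMIs) in CNT and 83.3 CPM in 3CK. The liver and yolk sac transcript TTR stood at 64857 and 19491 CPM there, while the goblet mucin MUC2 (1.04 and 0.642 CPM) and the stem cell marker LGR5 (0.420 and 0.357 CPM) were close to absent. Other goblet markers differed, with ZG16 at 1338 and 761 CPM and TFF3 at 128 and 38.2 CPM, while SPINK4, FCGBP and CLCA1 were also low. Of the other stem cell markers, ASCL2 stood at 0.512 and 12.1 CPM and EPHB2 at 4.71 and 6.52 CPM, while OLFM4 and SMOC2 were also low.

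PIGR was almost silent in the untreated organoids and abundant in the treated epithelium. In epithelial cells it had 20 UMIs in CNT, or 0.263 CPM (exact Poisson interval 0.160 to 0.406), and 7882 UMIs in 3CK, or 112 CPM (110 to 115). The log2 ratio of 3CK to CNT was 8.74 (8.11 to 9.45), a 428-fold difference. With equal weight per cell the log2 ratio was 9.63, above that interval. Of the 9786 genes that reached 10 CPM in CNT or 3CK, this was the 7th largest ratio in epithelial cells, and the median gene stood at 0.07. Ratios of at least 8 log2 units were found for 10 of these genes (0.102%), a count from the same contrast that chose PIGR. Over all kept cells PIGR went from 23 to 8493 UMIs.

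**Figure D1:**
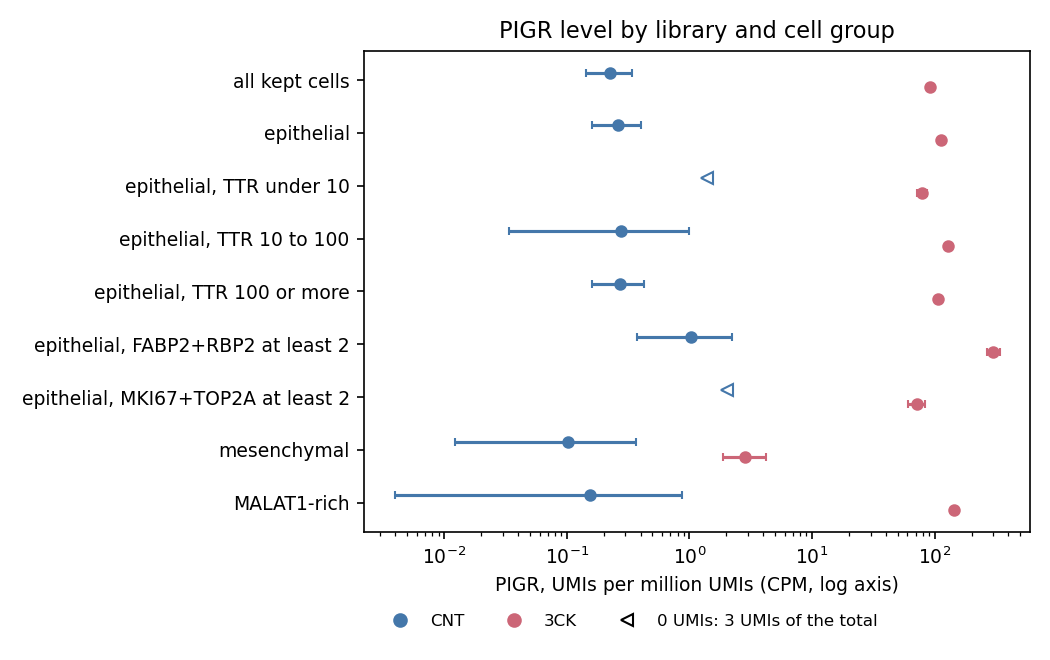
PIGR level in CPM (log axis) by library and cell group, with ranges of epithelial cells defined by UMIs per 10000 of the genes named. Points are summed UMIs over all UMIs of the group, bars are exact Poisson intervals, and open triangles mark groups with 0 UMIs at the value of 3 UMIs. The 3CK epithelial level of 112 CPM lies far to the right of the CNT level of 0.263 CPM, and the 3CK mesenchymal level, 2.85 CPM, lies between them.

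Within the treated library PIGR was an epithelial transcript. Mesenchymal cells of 3CK had 26 PIGR UMIs, or 2.85 CPM (1.86 to 4.18), which is 2.54% of the epithelial level in the same library. No mesenchymal cell held more than 2 PIGR UMIs, against up to 139 in an epithelial cell. Epithelial cells held 92.8% of the PIGR UMIs of 3CK and 76.3% of all its UMIs, whereas mesenchymal cells held 0.306% and 9.92%. In CNT the mesenchymal cells had 2 PIGR UMIs, 0.102 CPM (0.0123 to 0.368), so their log2 ratio of 4.81 has a wide interval (2.81 to 7.93).

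Epithelial transcripts varied widely in this share in 3CK. The plasma proteins made by these epithelial cells were at 1.22% (TTR), 1.81% (APOA1), 2.46% (ALB) and 2.91% (AFP) of their epithelial level in mesenchymal cells. The adhesion protein CDH1 stood at 3.01% and the tight junction genes CLDN3 and CLDN4 at 1.55% and 2.21%. EPCAM, which defined the groups, was at 1.80%. CLDN7 stood at 4.20%, LCN2 at 5.36% and DUOX2 at 14.5%. The keratins KRT19 (30.3%), KRT8 (56.5%) and KRT18 (63.7%) and the factor CDX2 (42.8%) were far higher. PIGR lay within the range of these genes, which were picked with their values known. Whether its UMIs in mesenchymal cells came from free RNA was not tested.

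**Figure D2:**
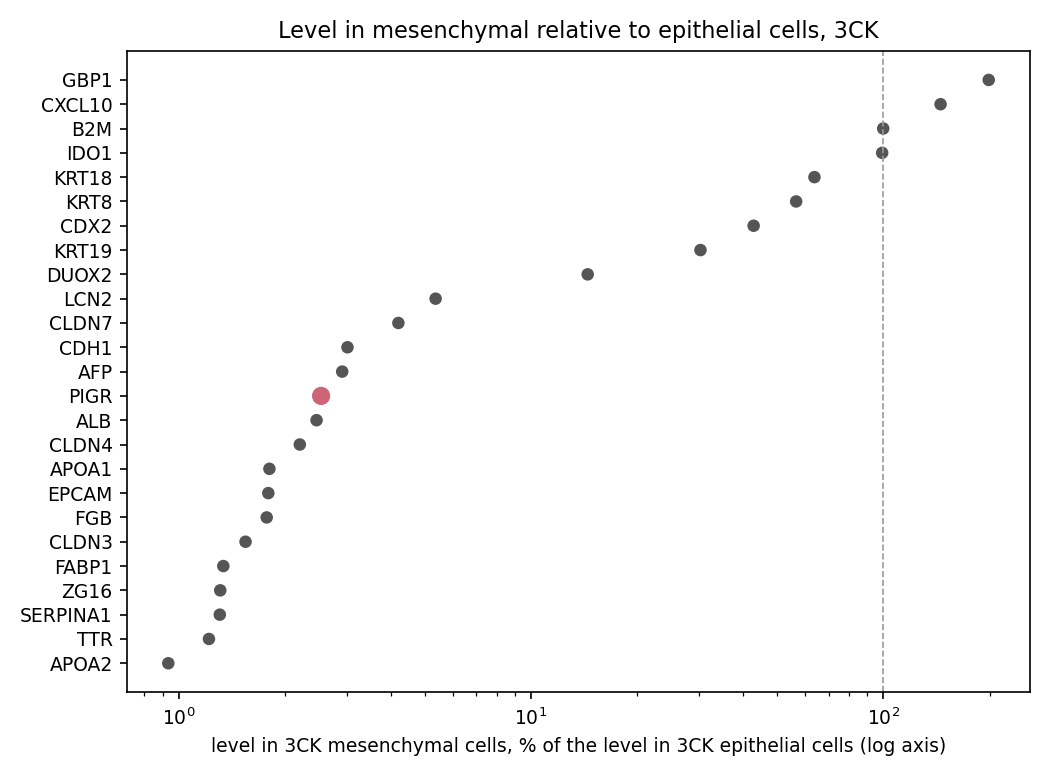
Level of each gene in 3CK mesenchymal cells as a percentage of its level in 3CK epithelial cells (log axis), with a dashed line where both are equal. PIGR, at 2.54%, sits among the epithelial and plasma protein genes, while B2M, IDO1, CXCL10 and GBP1 sit near or above the dashed line.

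The other genes with ratios of at least 8 log2 units in epithelium differed in this respect. They are the lymphocyte-attracting chemokines CXCL10, CXCL9 and CXCL11, the tryptophan-degrading enzyme IDO1, the guanylate-binding protein GBP5, the chemokine CCL3, the granulocyte growth factor CSF3, the antimicrobial peptide DEFB4A and the antiviral gene OASL, chosen here after their values were seen. IDO1 was at 552 CPM in epithelial and 548 CPM in mesenchymal cells of 3CK. CXCL10 was at 1785 and 2593 CPM, and CSF3 at 14.8 and 326 CPM. Only DEFB4A, at 137 and 1.65 CPM, had a mesenchymal level as small a part of the epithelial level as PIGR among these 10 genes (1.20% against 2.54%). OASL followed with 12.5%, and the remaining 7 genes lay at 45.6% or more. CCL3 and DEFB4A have near-identical copies among which counting can divide reads.

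MALAT1-rich barcodes also carried PIGR in 3CK. They had 1174 UMIs, or 145 CPM (137 to 154), against 1 UMI in CNT (0.155 CPM, 0.00394 to 0.866). A single barcode gave 305 of the 1174 UMIs, and without it the level was 109 CPM. That barcode had 94218 UMIs in all, MALAT1 at 572 and EPCAM at 1.17 per 10000, and so was not epithelial by the rule. Among the 74 MALAT1-rich barcodes that were neither epithelial nor mesenchymal, PIGR stood at 169 CPM with it and at 61.0 CPM without it.

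The 23 PIGR UMIs of CNT were spread over 15 cells. Of these, 11 held 1 UMI, and the highest held 5. That cell had 56656 UMIs, of which 465 came from FABP2 and 81 from RBP2, markers of absorptive enterocytes. The next highest, with 3 UMIs, had no FABP2 or RBP2. Across the 15 cells there was 1 UMI of CXCL10 and none of IDO1. Of the 15, 12 were epithelial, 2 mesenchymal and 1 MALAT1-rich only, and 14 had at least 20000 UMIs. In the CNT epithelial cells with FABP2 and RBP2 together at 2 or more per 10000, PIGR had 6 UMIs in 139 cells (1.03 CPM, 0.377 to 2.24), 5 of them from the highest cell. The other 1521 CNT epithelial cells had 14 UMIs (0.199 CPM, 0.109 to 0.334).

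The treated epithelium was uneven in PIGR. To compare cells at equal depth, each cell with at least 20000 UMIs was thinned to 20000 by random draws, which left out 327 of 1016 3CK epithelial cells. Of the remaining 689, PIGR was seen in 367 (53.3%, exact binomial interval 49.5 to 57.0), against 9 of 103 3CK mesenchymal cells (8.74%, 4.07 to 15.9) and 6 of 948 CNT epithelial cells (0.633%, 0.233 to 1.37). The cells had median depths of 96482, 78317 and 72384 UMIs before thinning. Without thinning the 3CK shares were 57.9% (54.8 to 60.9) and 17.7% (11.5 to 25.6), with median depths of 72198 and 65363 UMIs, and the CNT epithelial share was 0.723% at 37785 UMIs. No PIGR UMI was drawn in 300 thinned CNT mesenchymal cells, which allows a share of up to 1%, a limit above the CNT epithelial share. Unthinned, 2 of 574 CNT mesenchymal cells (0.348%, 0.0422 to 1.25) had a PIGR UMI.

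Thinned 3CK epithelial cells held a mean of 2.65 PIGR UMIs with an SD of 4.97 across cells, a median of 1, an upper quartile of 3 and a maximum of 38. A common rate in all cells would leave 7.09% of them without PIGR, and 46.7% had none. The 69 cells with the most PIGR carried 55.5% of its UMIs, and 48 cells held 10 or more. The variance was 9.32 times the mean, where the median gene of similar mean (591 genes with 0.8 to 1.25 times the mean of PIGR) had 1.98, and 33 of the 591 exceeded PIGR.

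**Figure D3:**
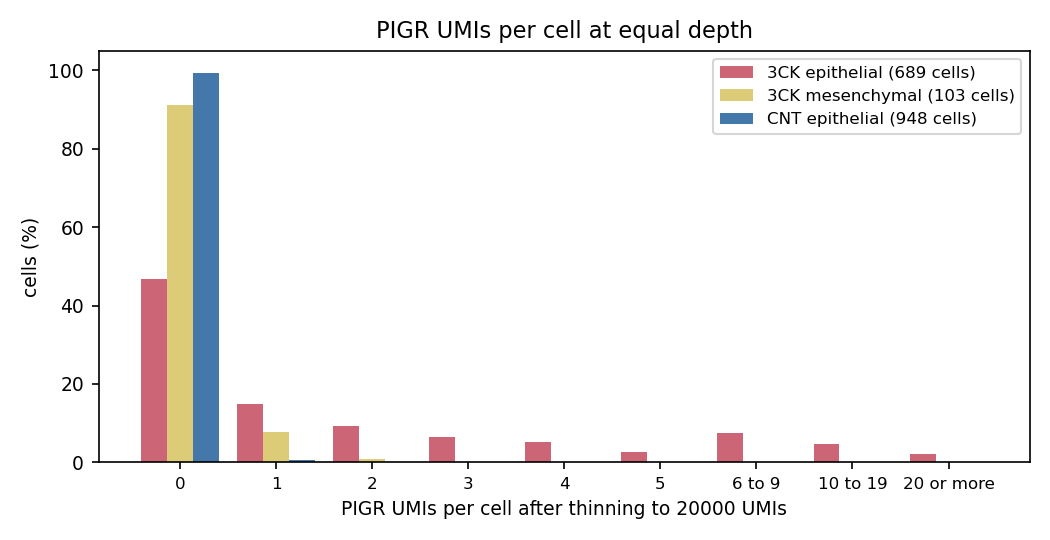
Percentage of cells by number of PIGR UMIs after thinning every cell to 20000 UMIs, for 3CK epithelial, 3CK mesenchymal and CNT epithelial cells. The 3CK epithelial bars run from 46.7% of cells at 0 UMIs to 2.18% at 20 or more, while all mesenchymal and CNT cells lie at 2 UMIs or fewer.

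Other response genes were seen in more or in fewer of the same cells. The peptide transporter TAP1 was seen in 98.5% of the 689 thinned cells, the transcription factor IRF1 in 96.8% and IDO1 in 83.6%, at means of 11.5, 7.63 and 10.4 thinned UMIs. CXCL9 was seen in 32.1%, DEFB4A in 32.2%, CCL3 in 27.3%, OASL in 26.0%, the chemokine CXCL8 in 23.2% and the NF-κB inhibitor TNFAIP3 in 49.8%. The siderophore-binding protein LCN2 resembled PIGR in its share, at 50.9%, but the 69 cells with the most LCN2 carried 75.9% of its UMIs. At a mean close to that of PIGR, NFKBIA, another NF-κB inhibitor (2.80 UMIs), was seen in 83.0% of cells and had a variance of 2.34 times its mean.

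The level differed with depth. In 3CK epithelial cells PIGR stood at 149 CPM (123 to 178) in 286 cells under 10000 UMIs, 204 (179 to 231) in 66 cells of 10000 to 30000, 150.5 (146 to 155) in 339 cells of 30000 to 100000, and 88.3 (85.6 to 91.2) in 325 cells of 100000 or more. The share of cells with a UMI went from 21.0% to 59.1%, 70.2% and 77.2% in the same order. In CNT all 20 epithelial UMIs were in cells of at least 30000 UMIs. The log2 ratio was 8.85 in cells of 30000 to 100000 UMIs and 8.76 in deeper ones.

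Ranges of epithelial cells set by other markers were compared next. They are ranges of a level and not cell types. By TTR, the most abundant transcript, PIGR in 3CK stood at 79.2 CPM (71.9 to 87.1) in 59 cells with under 10 per 10000, 129 CPM (124 to 133) in 443 cells with 10 to 100, and 106 CPM (103 to 109) in 514 cells with 100 or more. A single cell gave 139 of the 430 UMIs of the lowest range, and without it the level was 54.8 CPM. It was also 51.8 CPM where EPCAM had to reach 5 per 10000. The log2 ratio to CNT was 8.86 and 8.62 in the middle and upper TTR ranges. The lower range had 0 UMIs in 22 CNT cells, so PIGR was at least 57.1-fold higher there against a floor of 3 UMIs in the range.

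Among these marker ranges the PIGR level in CPM was highest in the few treated cells that carried enterocyte transcripts. The 25 3CK epithelial cells with FABP2 and RBP2 at 2 or more per 10000 had 270 PIGR UMIs, or 300.01 CPM (265 to 338), against 110 CPM (107 to 112) in the other 991 epithelial cells. Without its highest cell the range stood at 240.1 CPM (208 to 276). PIGR was seen in 14 of the 25 cells (56.0%), close to the 57.9% of the other cells, at median depths of 21372 and 73614 UMIs. In the 13 cells of the range with at least 20000 UMIs the level was 302 CPM, and these cells held 263 of the 270 PIGR UMIs. Both genes that set this range were lower in 3CK, with FABP2 at 184 CPM in CNT cells and 19.1 CPM in 3CK cells, so the range holds 139 CNT and 25 3CK cells.

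Cells with the cycling markers MKI67 and TOP2A at 2 or more per 10000 had PIGR at 71.2 CPM (60.7 to 82.9) in 37 3CK cells, against 114 CPM in the other 979. With EPCAM at 5 or more the cycling range stood at 149 CPM, but the other cells were not measured at that threshold, so the order there is not known. Without its highest cell the cycling range at the main EPCAM threshold stood at 52.0 CPM. The 5 3CK cells with enteroendocrine markers (CHGA, CHGB and NEUROD1) at 2 or more held 17 PIGR UMIs, 81.1 CPM (47.2 to 130). Epithelial cells that also carried collagen transcripts at 5 or more per 10000 had 83.0 CPM (68.2 to 100) in 49 cells, and 147 CPM where EPCAM was 5 or more.

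Genes that varied with PIGR were ranked by Spearman's rho across the 689 thinned 3CK epithelial cells, over 5897 other genes with a mean of at least 0.5 thinned UMIs. The cells share 1 library and 1 depth after thinning, and rho is a description with no p. The coefficient ranged from -0.358 to 0.415, with the middle 95% of genes between -0.196 and 0.206 and 19 genes over 0.3. Depth before thinning had a rho of -0.157 with PIGR, and the mitochondrial share 0.199.

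The 15 highest genes encode membrane, secreted and intracellular proteins. CEACAM6, a membrane glycoprotein of the CEA family, had the highest (0.415), with a mean of 9.42 thinned UMIs in cells without PIGR and 25.1 in cells with 6 or more PIGR UMIs. ADGRG7, an adhesion G protein-coupled receptor of the gut, followed at 0.406, going from 0.637 to 3.13 UMIs. The membrane mucin MUC13 stood at 0.376, the hydrogen peroxide-making oxidase DUOX2 at 0.370, the iron oxidase HEPH at 0.365 and the serine protease TMPRSS2 at 0.364. Next came the selenium carrier SELENOP (0.338), the sugar phosphate carrier SLC37A1 (0.337), the choline transporter-like SLC44A4 (0.335), the chemokine CCL20 (0.330) and the intestinal cadherin CDH17 (0.328). TSPAN8 (0.322), SEMA3B (0.320), the protein disulfide isomerase P4HB (0.318) and the transcription factor CEBPA (0.314) completed the 15 highest. CEACAM6 has close relatives among which reads could be divided.

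These 15 genes did not share a direction between the libraries. In epithelial cells CCL20 was higher in 3CK by a log2 ratio of 3.72, DUOX2 by 2.50, CEACAM6 by 1.49, TMPRSS2 by 1.36, SLC37A1 by 1.33 and MUC13 by 1.11. SELENOP and CEBPA were lower, at -1.29 and -1.30. The other 7, from SLC44A4 at -0.92 to P4HB at 0.22, lay within 2-fold.

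At the other end stood DRAP1, a transcriptional corepressor subunit, at -0.358, which went from 7.31 thinned UMIs in cells without PIGR to 2.94 in cells with 6 or more. JPT1 (-0.350), the TWEAK receptor TNFRSF12A (-0.325), the vesicle protein VAMP5 (-0.324), the myosin light chain MYL12A (-0.300), the nucleoside diphosphate kinase NME1 (-0.293), SUMO2 (-0.292), the phospholipase PLAAT3 (-0.291), the proton pump subunit ATP6V0E1 (-0.284) and CCDC85B (-0.280) made up the 10 lowest. VAMP5 itself was higher in 3CK, by a log2 ratio of 3.50, as were TNFRSF12A (0.96) and DRAP1 (0.89) by less.

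**Figure D4:**
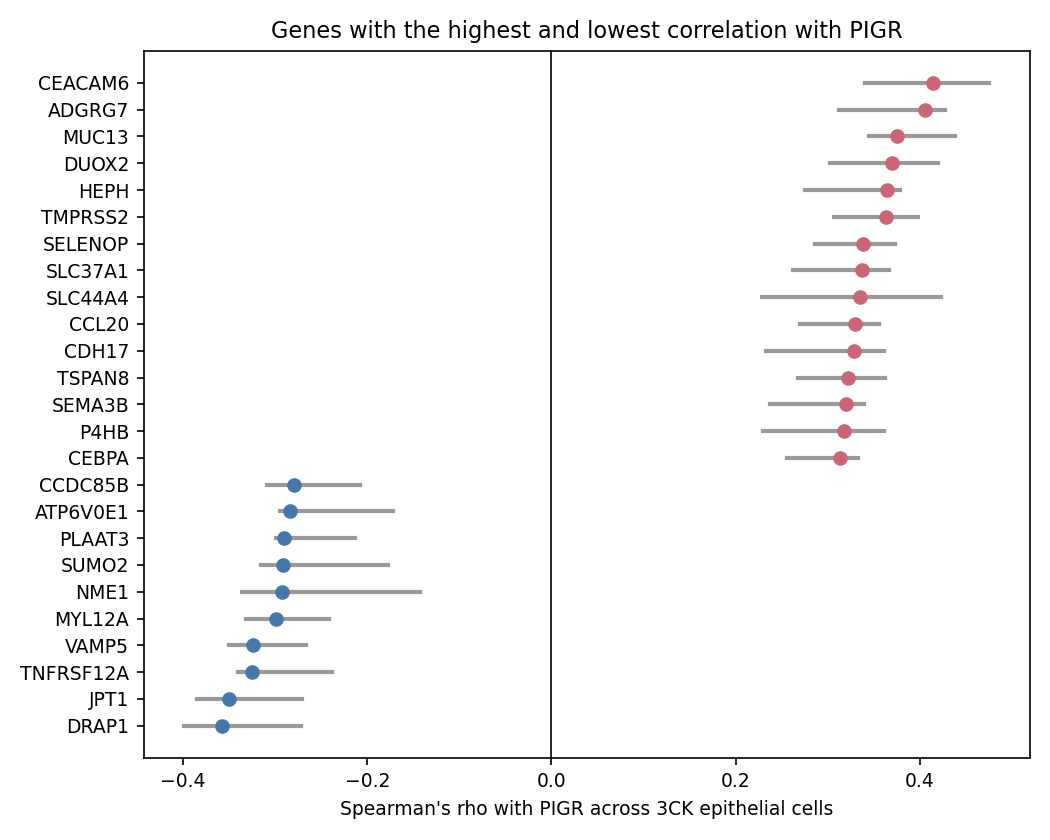
Spearman's rho with PIGR across 3CK epithelial cells for the 15 highest and 10 lowest genes (points) and the range over the 8 other settings that kept more than 300 cells (grey bars). All 15 points on the right lie at 0.314 or more and all 10 on the left at -0.280 or less, and no bar crosses 0.

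Cells rich in PIGR differed in measures of library quality as well. Median depth before thinning was 100277 UMIs in the 322 cells without a PIGR UMI, 101679 in the 167 cells with 1 to 2, 91573 in the 100 cells with 3 to 5 and 80871.5 in the 100 cells with 6 or more. The median mitochondrial share was 2.02%, 2.29%, 2.54% and 3.54% in that order, and MALAT1-rich barcodes made up 9.63%, 12.6%, 12.0% and 12.0%. The part of depth and mitochondrial share in the correlations was not tested beyond this: in cells of 20000 to 100000 UMIs the 15 highest genes kept values of 0.260 to 0.388, in deeper cells 0.275 to 0.476, and in cells under 3% mitochondrial UMIs 0.233 to 0.402. Summed mesenchymal markers (8 genes) were lower in PIGR-rich cells, with a mean of 19.8 thinned UMIs in cells without PIGR and 9.30 in cells with 6 or more, and the filament gene VIM had a rho of -0.268. Most UMIs of the mesenchymal list came from VIM, with 52347 UMIs in 3CK epithelial cells. The next member, LUM, had 1871 UMIs and a rho of 0.077. Summed leukocyte markers (6 genes, LYZ among them) were higher in PIGR-rich cells, from 0.134 to 0.620 thinned UMIs, and the part of either list in the correlations was not tested. Most UMIs of this list came from LYZ, which is also in the mucosal defence list below. In 3CK epithelial cells LYZ had 698 UMIs, the next member CD14 had 78 and PTPRC had 6.

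The pathway was then followed from ligand to receptor, by gene lists. In epithelial cells 7.88% of the 9786 tested genes were at least 2-fold higher in 3CK and 7.62% at least 2-fold lower, which is the background for the counts below. Immunoglobulin itself was missing. IGHA1, IGHA2 and IGHM had 0 UMIs in both libraries over all kept cells, where a floor of 3 UMIs is 0.0295 CPM for CNT and 0.0327 CPM for 3CK. The joining chain gene JCHAIN had 8 and 5 UMIs, the light chain gene IGKC 6 and 2, and the plasma cell chaperone MZB1 29 and 38. The B cell genes CD79A (125 and 29 UMIs) and MS4A1 (7 and 6) were also low, and none of the 8 genes reached 10 CPM.

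Neighbours of PIGR on chromosome 1 did not show its ratio. FCMR, the IgM Fc receptor gene 5275 bases away, had 23 UMIs in CNT and 29 in 3CK epithelial cells, a log2 ratio of 0.45 (-0.39 to 1.31). FCAMR, a receptor for IgA and IgM 11499 bases away on the other side, had 7 and 8 UMIs. C1orf116 stood at 0.09 on the log2 scale (-0.01 to 0.19; 1595 and 1559 UMIs), PFKFB2 718 and 447 (-0.56), and YOD1 528 and 552 (0.18). The cytokine genes IL19 (30 and 12 UMIs), IL24 (2 and 6) and IL20 (1 and 0), within 100000 bases, were barely detected, as was IL10 (4 and 12). Farther along the chromosome, the complement regulators CD55 (0.49), C4BPB (-0.78) and C4BPA (2.31, from 53 to 242 UMIs) varied in direction.

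The list also holds genes for IgG handling. FCGRT, the neonatal Fc receptor that moves IgG, had a log2 ratio of -0.95 (7541 and 3584 UMIs), within 2-fold. FCGBP, a mucus protein named for IgG binding, had 232 and 9 UMIs (-4.57) and did not reach 10 CPM. Of the 14 genes of the list, 4 reached 10 CPM and none of these passed 2-fold, with a median of -0.35.

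Genes for sorting and transport of the receptor passed 2-fold no more often than genes in general. Of 34 genes, 32 were tested, 1 was at least 2-fold higher and 2 were at least 2-fold lower, and the median log2 ratio was -0.04 beside 0.07 for all genes. The higher gene was VAMP8, a membrane fusion protein, at 1.08 (1.05 to 1.10). The lower genes were the kinase PRKCE (-1.42) and the small GTPase RAB3B (-1.07), which is known to bind the receptor. LGALS3, the most abundant member and a lectin of the apical route, was at -0.34 (2289 CPM in CNT, 1808 in 3CK). Recycling endosome genes lay within 2-fold but differed in direction. RAB11A stood at 0.03, RAB25 at 0.51, RAB11FIP1 at 0.50 and the motor gene MYO5B at 0.17. RAB11B (-0.42), RAB4A (-0.75) and RAB17 (-0.78) were lower in 3CK. The adaptor AP1M2, which sorts basolateral proteins in epithelia, was at -0.46. Across cells LGALS3 had the highest rho with PIGR in this list (0.206) and VAMP8 the lowest (-0.206).

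Genes listed as factors of the PIGR promoter, not shown here to bind it, were higher as a group than most genes. Across treated cells the summed list had a rho of 0.207 with PIGR. The middle 95% given above is of single genes, so this sum is not set against it. Its mean went from 27.1 thinned UMIs in cells without PIGR to 35.1 in cells with 6 or more. Of its 16 members with a rho, 2 exceeded 0.2, beside 166 of all 5897 genes. Of 19 genes, 17 were tested, 6 were at least 2-fold higher and none was at least 2-fold lower, and the median log2 ratio was 0.79 beside 0.07 for all genes. IRF1 had the largest ratio, 4.51 (16.7 and 380 CPM), and MYC (2.97), NFKBIZ (1.62), USF1 (1.22) and the epithelial factor ELF3 were also above 2-fold. NFKB1 (0.89) and RELB (0.86) were within 2-fold. Across cells the highest rho with PIGR in this list belonged to NFKBIZ (0.259), an NF-κB cofactor, and the next to CDX2 (0.239). IRF1 stood at -0.03 and RELB at -0.07, both within the middle 95% of genes.

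A list of cytokine receptors and kinases, which also holds receptors for IL-4, IL-13 and IL-17, gave 5 of 13 tested genes at least 2-fold higher and 1 lower, with a median of 0.69. IFNGR1 was the most abundant in 3CK, at 243 CPM against 63.9 CPM in CNT (1.93), and had the highest rho in its list (0.142). The kinases JAK1 (1.42) and JAK2 (2.27), the IL-4 receptor chain IL4R (1.10) and TNFRSF1B (4.04) were the others above 2-fold. TNFRSF1A stood at 0.69, and the IL-1 receptor accessory protein IL1RAP at -1.12. IL1R1, with 600 and 429 UMIs, did not reach 10 CPM in epithelial cells (7.88 and 6.12 CPM).

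The IFN-γ response list was higher in 3CK as a whole. All 25 tested members of 26 were at least 2-fold higher in 3CK, from IRF8 (1.48) to CXCL10 (12.5), with a median of 4.78. B2M, the class I light chain, was the most abundant at 9698 CPM in 3CK. Across the 689 cells the summed list had a rho of -0.09 with PIGR, too small to be read. Its mean was 634 thinned UMIs in cells without PIGR, 654 with 1 to 2, 575 with 3 to 5 and 567 with 6 or more. CXCL10 had the lowest rho of the list (-0.210), with 41.5 thinned UMIs in cells without PIGR and 12.0 in cells with 6 or more, and CXCL11 had -0.206. IDO1 went from 11.4 to 6.17 UMIs (-0.141).

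NF-κB target genes that respond to TNF or IL-1 were also higher in 3CK for the most part. Of 19 tested genes 15 were at least 2-fold higher and none lower, with a median of 3.17, and the summed list had a rho of -0.07 with PIGR, again too small to be read. CX3CL1 had the largest ratio (5.71), NFKB2 the smallest (0.71), and the secreted protein IL32 was the most abundant at 3576 CPM in 3CK. Single members differed: CCL20 and NFKBIZ, already named, were positive, CXCL3 stood at 0.199 and IER3 was lowest at -0.164.

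Mucosal defence genes stood closest to PIGR across cells. Of 26 genes, 18 were tested, 14 were at least 2-fold higher and 2 at least 2-fold lower, with a median of 2.81. The summed list had the highest rho with PIGR of the 8 lists (0.276). Its mean was 112 thinned UMIs in cells without PIGR, 171 with 1 to 2, 150 with 3 to 5 and 196 with 6 or more, so the rise was not steady. Of its 15 members with a rho, 6 exceeded 0.2: CEACAM6, MUC13, DUOX2, the nitric oxide synthase NOS2 (0.283), CEACAM5 (0.217) and CEACAM1 (0.201). Over all 5897 genes 166 exceeded 0.2. NOS2 went from 61 to 4489 UMIs between the libraries, and from 0.870 thinned UMIs in treated cells without PIGR to 2.94 in those with 6 or more. DEFB4A, with the largest ratio of the list (8.35), had a rho of 0.06, LCN2 had 0.142 and the secreted protein WFDC2 had the lowest, near 0. SAA1, an acute-phase protein, was the most abundant at 933 CPM in 3CK, and REG4, a goblet and endocrine lectin, was lowest between libraries at -4.86. SAA1 and SAA2, and the CEACAM genes, are near relatives whose separate values are uncertain.

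**Figure D5:**
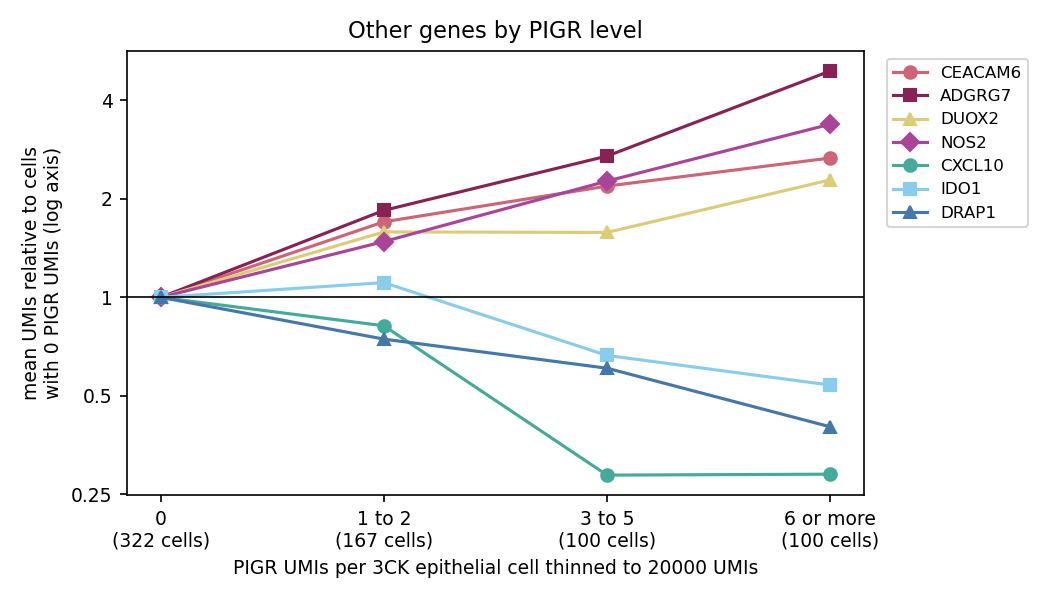
Mean thinned UMIs of 7 genes in 3CK epithelial cells grouped by PIGR UMIs (0, 1 to 2, 3 to 5, 6 or more), divided by the mean in cells with 0 PIGR UMIs (log axis). ADGRG7, NOS2, CEACAM6 and DUOX2 climb with PIGR, and IDO1, CXCL10 (41.5 to 12.0 UMIs) and DRAP1 end below 1.

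Intestinal and hepatic markers both had members that went with PIGR. The enterocyte markers FABP1 and VIL1 were lower in 3CK than in CNT, but varied with PIGR within 3CK. The fatty acid carrier FABP1 went from 1.74 thinned UMIs in cells without PIGR to 7.38 in those with 6 or more (rho 0.225), and the microvillus protein VIL1 from 0.460 to 1.23 (0.223). The remaining enterocyte markers with a rho were FABP2 (0.099) and APOA4 (-0.021). AFP, the fetal liver and yolk sac protein, went from 40.4 to 75.8 (0.244), while TTR had a rho of 0.04. The fibrinogen gene FGB had 0.211, and the remaining hepatic markers lay between 0.009 (ALB) and 0.057 (APOA2). EPCAM had 0.175 and the keratin KRT18 -0.145. As whole lists, the 7 hepatic markers had a rho of 0.06 with PIGR, the 7 enterocyte markers 0.05 and the 6 goblet markers 0.07, all too small to be read. The enterocyte sum had a mean of 46.4 thinned UMIs in cells without PIGR, 45.0 with 1 to 2, 53.4 with 3 to 5 and 37.4 with 6 or more.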

How the data were processed

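Both libraries used the 10x Genomics 3' v3.1 chemistry, per the labels' protocols, with about 8300 cells loaded each. The authors deposited raw UMI counts for each gene in each barcode, made with Cell Ranger 7.1.0 per the file headers, on GRCh38 per the submitters' processing notes. The annotation release is not given in the sources used here. Barcodes with at least 500 genes and at most 20% mitochondrial UMIs were kept, and Scrublet (scanpy 1.11.5) scores removed 0.8% of barcodes per 1000 as doublets, 52 in CNT and 16 in 3CK. UMIs were summed per group and scaled to CPM by all UMIs of the group. A count of 0 was set to 3 UMIs. Intervals of ratios were derived from exact binomial limits on the part of both counts that came from 3CK. Lists were compared over genes that reached 10 CPM in CNT or 3CK, with a 2-fold threshold. Named genes were the 15 highest and 10 lowest by rho, of each list the most abundant member and the extremes of ratio and rho, all ligand and neighbouring genes and a few regulators and receptors. Some of these are not reported here. Other genes, among them those of the mesenchymal comparison, the genes spread over cells and the intestinal and hepatic markers, were picked with their values known, or are markers. PIGR and the lists were chosen with earlier results of these data known. Ratio, thinning and correlation were tested on simulated data.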

Additional observations from a re-analysis of the deposited data

Results flagged for a closer look

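PIGR was also found in 3CK barcodes that the comparisons left out, above the level in the matching CNT barcodes. The 243 barcodes removed from 3CK held 203 PIGR UMIs, 67.1 CPM (58.1 to 76.9), against 1 UMI in 770 CNT barcodes (0.287 CPM, 0.00727 to 1.60). Of these, the 52 with too few genes stood at 268 CPM (162 to 419), the 175 with a high mitochondrial share at 95.2 CPM (79.4 to 113) and the 16 probable doublets at 35.1 CPM (26.6 to 45.5). A further 184 kept 3CK barcodes in none of the 3 groups stood at 11.9 CPM (9.80 to 14.2), against 0 UMIs in 182 CNT barcodes. What these barcodes are was not tested.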

How the results depend on the processing

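The log2 ratio of PIGR over all kept cells stayed between 8.58 and 9.30 under 8 other settings. In epithelial cells it stayed between 8.62 and 8.84 under 11 others and was 9.63 with equal weight per cell. The share of thinned 3CK epithelial cells with a PIGR UMI was 41.9% at 10000 UMIs, 31.6% at 5000, 60.04% with EPCAM at 5 or more and 57.9% without thinning. These settings differ in the UMIs drawn or in the cells used. Another draw from the same cells gave 41.4% at 10000 UMIs and 28.9% at 5000. With EPCAM at 5 or more, PIGR in 3CK was 51.8, 161 and 122 CPM in the TTR ranges from low to high, 149 CPM with cycling markers and 147 CPM with collagen, and the cause was not tested. Of the 25 genes named by rho, 2 remained among the extremes in the 56 cells with TTR under 10 (fewer cells), 16 with another random draw, 15 in cells of 20000 to 100000 UMIs, 16 in deeper cells and 16 under 3% mitochondrial UMIs. The last 3 settings were added after seeing the data. The sign was kept by all 25 genes or by 24 of 24 measured under each of these 9 settings. With a minimum of 50 CPM, 3 instead of 5 list genes were at least 2-fold lower.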
